A study of Caenorhabditis elegans with 21 samples.

Results

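The effect of losing the DAF-16 isoforms a and f together was set against the effects of losing each of them alone, using 15 of the 21 libraries of the series. On the log2 scale the contrast was daf-16(mg54);daf-2(e1370), minus the mean of daf-16(tm5030);daf-2(e1370) and daf-16(tm5032);daf-2(e1370), minus daf-16(tm6659);daf-2(e1370), plus daf-2(e1370). The result is called the departure from additivity here. It is 0 where the fold change in mg54 equals the product of the fold changes in the single mutants. It is below 0 where mg54 lies lower than that product, and above 0 where mg54 lies higher.

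Per the labels, mg54 affects daf-16a together with daf-16f, daf-16a alone is mutated in tm5030 and, as a separate allele, in tm5032, and daf-16f alone in tm6659. Each of these 4 was combined with daf-2(e1370), and the fifth genotype was daf-2(e1370) with wild-type daf-16. All 5 genotypes of the contrast therefore carry daf-2(e1370). The null mutation daf-16(mu86) with daf-2(e1370), and N2 wild-type, lie outside the contrast and are given beside it. Each genotype had 3 libraries of poly(A) RNA from whole adults at day 1 of adulthood, from a 4-hour egg-lay, grown at 15 °C up to L4 and moved to 20 °C for a further 20 to 24 hours. Plates with males were not used. The double loss and the loss of f each rest on 1 allele, so the effect of the isoforms and that of any other difference in those strains cannot be told apart. The labels do not say that replicates were separate cultures, and p-values measure the spread between these libraries. Levels are CPM (counts scaled to library size with TMM factors), the genotypes are called by their daf-16 allele below, and daf-2 stands for daf-2(e1370).

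In C. elegans, DAF-2 acts as receptor for insulin-like peptides. When its signalling is low, the FoxO transcription factor DAF-16 acts in the nucleus and raises genes for stress defence, immunity and fat metabolism, while other genes fall. The daf-16 gene makes several isoforms from different promoters, and isoforms a and f share most of their sequence, including the DNA-binding domain, and differ at the N-terminus.

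Library totals ran from 30384772 to 47170645 counts, and the 10 largest loci held 7.7% to 10.5% of them. Markers of sperm, oocytes, embryos, the germ line, body wall and pharynx muscle, hypodermis, neurons and the male tail (66 loci, in 9 lists) had 0 loci with a departure called by edgeR's test or by DESeq2, and 3 at an unadjusted p under 0.05. Only 4 of 8 embryo loci and 1 of 5 male tail loci were tested, so 0 calls say little there. Among 9 intestine markers, ges-1 was called below 0, while the median departure of the 9 was 0.25 and their median mg54 change 0.10 (log2). Summed intestine markers were at 3630 to 4755 CPM in mg54, 3530 to 3997 CPM in tm5030, 3472 to 3653 CPM in tm5032 and 2623 to 2907 CPM in tm6659, against 2885 to 3136 CPM in daf-2, so the mg54 and daf-16a libraries lay above those of daf-2. Summed sperm markers overlapped among the 5 genotypes, at 690.1 to 2023 CPM in mg54, 443 to 2011 CPM in tm5030, 367.3 to 1766 CPM in tm5032, 652.5 to 1278 CPM in tm6659 and 646 to 1374 CPM in daf-2. The 3 pharynx muscle markers summed to 25.9 to 66.3 CPM in mg54, 18.5 to 53.7 CPM in tm5030, 9.70 to 54.97 CPM in tm5032, 11.6 to 20.2 CPM in tm6659 and 5.86 to 18.3 CPM in daf-2, and their part in the results was not tested. The 4 embryo markers summed to 8.00 to 17.36 CPM in mg54, above the 5.995 to 7.139 CPM in daf-2. They were at 6.009 to 9.495 CPM in tm5030, 6.74 to 9.71 CPM in tm5032 and 6.001 to 6.967 CPM in tm6659, and their part was not tested either.

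Most loci did not depart detectably from additivity. Of 12091 loci tested, 53 (0.438%) had a departure with an adjusted p under 0.05 (edgeR's quasi-likelihood test, 2-sided, Benjamini-Hochberg over all loci). Of these, 46 (0.38%) lay below 0 and 7 (0.0579%) above 0. At an unadjusted p under 0.05 there were 574 loci (4.75%), and the median departure of all loci was 0.02. A total of 3 called loci hold more than 1 protein-coding gene, namely F21C10.11/F21C10.13, btb-16/btb-17/btb-18 and lat-2/try-9. F21C10.11/F21C10.13, chosen after its values were seen, had the lowest adjusted p of the 53 (7.59e-06). Its departure was -6.18 (log2, standard error 0.49).

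The 53 loci fell into 4 groups by the sign of the departure and of the fitted mg54 change against daf-2, whether or not that change was called. In 43 loci the departure was below 0 and mg54 was lower than daf-2, so that mg54 lay further down than the single changes add up to. In 5 loci both were above 0. The other groups held 2 loci with a departure above 0 and an mg54 change below 0 (daf-16 and dnbp-1), and 3 with a departure below 0 and an mg54 change above 0 (ugt-64, Y69A2AR.12 and Y48G9A.17). The mg54 change was not called in cTel55X.1 (0.11, adjusted p = 0.919) and in Y48G9A.17 (0.20, adjusted p = 0.983).

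The single mutants changed far fewer loci than the double loss. Against daf-2, mg54 had 1130 called loci (9.35%), the mean of the daf-16a mutants 226 (1.87%) and tm6659 21 (0.174%; 409 at an unadjusted p under 0.05). Of the 674 loci (5.57%) lower in mg54, 538 (79.8%) were called in neither single mutant, 122 in the daf-16a mutants alone, 13 in tm6659 alone and 1 in both. Of the 456 loci (3.77%) higher in mg54, 375 (82.2%) were called in neither, 78 in the daf-16a mutants alone, 0 in tm6659 alone and 3 in both. These comparisons share the daf-2 libraries and are set side by side as a description.

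Failing the threshold in each single mutant is not the same as a departure. Among the 385 loci at least 2-fold lower in mg54, the median log2 change was -2.04 in mg54, -0.82 in the daf-16a mutants and -0.18 in tm6659. Their median departure was -0.91 with a median standard error (SE) of 0.48, and 40 of the 385 were called. Among the 218 loci at least 2-fold higher in mg54, the medians were 1.81 in mg54, 0.99 in the daf-16a mutants and 0.17 in tm6659, with a departure of 0.60 (median SE 0.48). A departure above 0 was called in 2 of these and one below 0 in 2. These loci were picked on their mg54 values, which enter the departure, so the medians are a description.

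The 43 loci were picked on the values of the 5 genotypes, in a way that favours a low mg54 and little-changed single mutants. Their levels in these genotypes are therefore a description. In the 43 loci, every mg54 library lay below every library of tm5030, tm5032, tm6659 and daf-2. Relative to the daf-2 mean, the level was 0% to 67.2% in mg54 (median 5.56%), 6.13% to 161% in the daf-16a mutants (median 56.9%) and 56.3% to 134% in tm6659 (median 89.9%). The null mu86 was at 0% to 98.5% (median 7.85%), highest in haf-6, and N2 at 0% to 102% (median 6.64%). Each of these 2 genotypes was under 50% of the daf-2 mean in 39 of the 43. The daf-16a mutants were called lower than daf-2 in 19 of the 43 (1.09% of all loci, and 0.777% higher) and tm6659 in 0 of the 43 (0.132% of all loci, and 0.0414% higher; 2 at an unadjusted p under 0.05, 0 by DESeq2). The tm6659 mean was above the daf-16a mean in 36 loci and below it in 7.

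A departure below 0 did not always go with a level near that of daf-2 in both single mutants. In 25 of the 43 loci the daf-16a mutants and tm6659 each kept at least 50% of the daf-2 mean. In the other 18 the daf-16a mutants were under 50% while tm6659 was at least 50%, and there was no locus with tm6659 under 50%. In 9 loci both kept at least 80%, a limit chosen after the values were seen, namely lys-7, hen-1, haf-6, acox-3, bam-2, mce-1, lat-2/try-9, F47B8.4 and Y39B6A.1. The limit has no upper end, and Y39B6A.1 was at 160.5% in the daf-16a mutants and acox-3 at 134.4% in tm6659. On a linear scale, mg54 lay below the level expected from adding CPM differences in 42 of the 43 loci. It lay more than 2 SE below in 26, and above that level in F15B9.6. The loci below it by less than 2 SE included sdz-24, mtl-1 at both loci, ftn-1, dod-3, glb-1, aat-1, cyp-35B1, dlhd-1, clc-27, F47B8.4 and F17B5.1. For these the departure was called on the log scale and did not pass 2 SE on the linear one. That does not show that it was absent on the linear scale. The linear value was -12.88 CPM (SE 6.90) in sdz-24, for example, and -0.09 CPM (SE 0.79) in cyp-35B1.

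**Figure D1:**
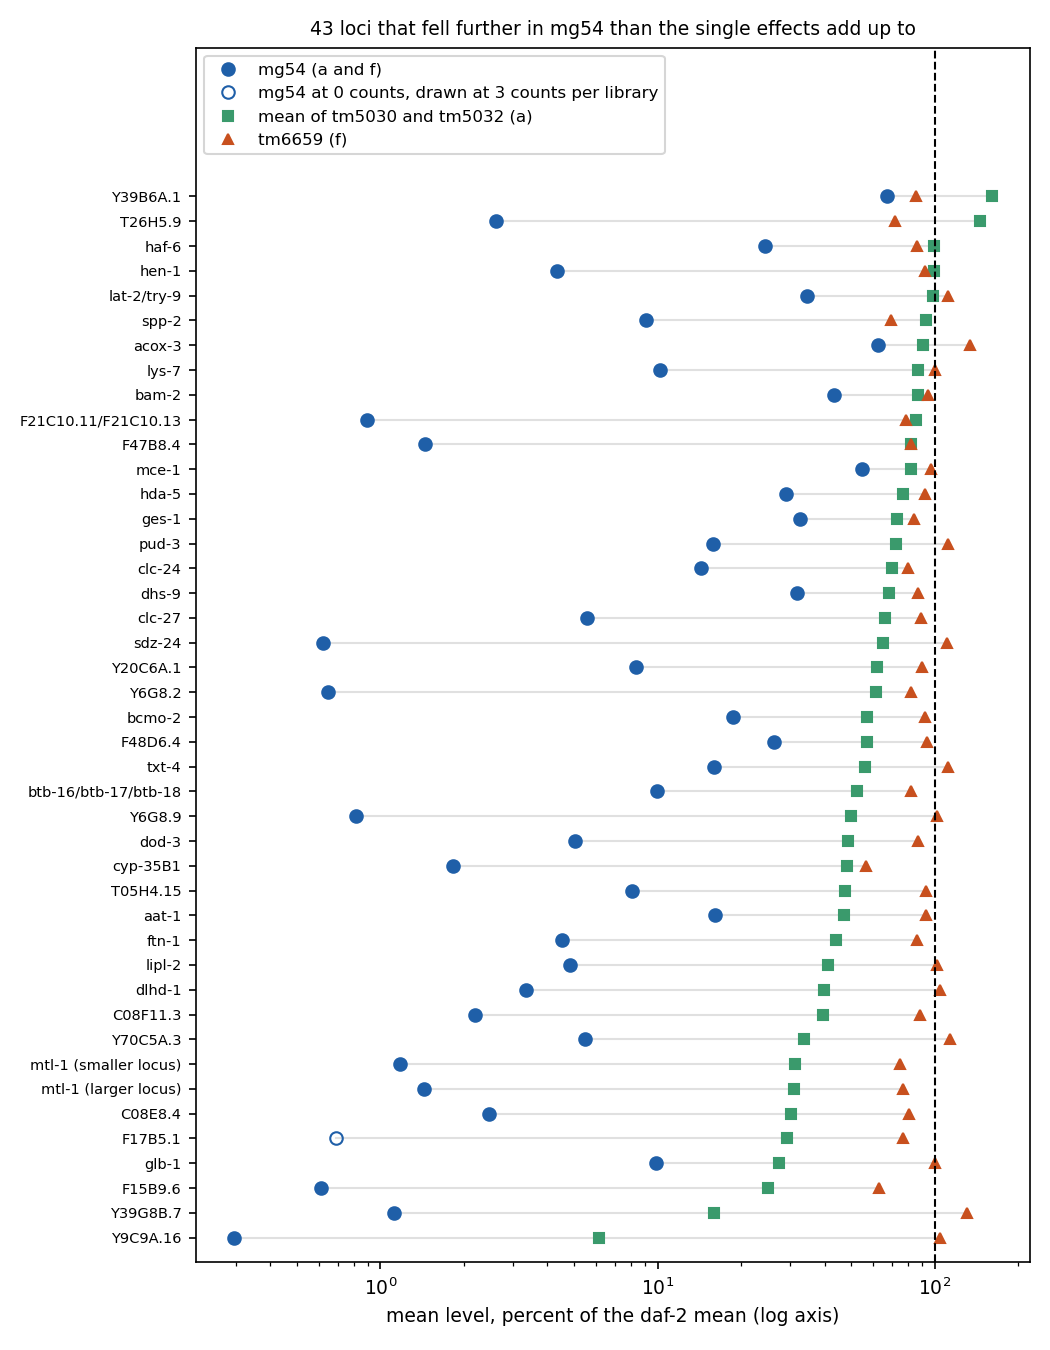
Mean level of each of the 43 loci in mg54, in the 6 libraries of the daf-16a mutants and in tm6659, as percent of the daf-2 mean on a log axis, ordered by the daf-16a value. The tm6659 points gather around the dashed line at 100%, the daf-16a points spread from 161% down to 6.13%, and the mg54 points lie to the left of both; mtl-1 appears as 2 loci, and F17B5.1 is drawn at 3 counts per library because mg54 had 0.

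Among genes of innate defence, lys-7 was near the daf-2 level in both single mutants, and spp-2 was near it in the daf-16a mutants. lys-7 (V:3481432-3482600 in WBcel235), a lysozyme-family gene, was at 28.5, 22.9 and 21.3 CPM in mg54. It was at 171, 207 and 202 CPM in tm5030, at 198, 243 and 213 CPM in tm5032 and at 245, 262 and 204 CPM in tm6659, against 323, 148 and 241 CPM in daf-2. The 3 mg54 libraries were the low ones, and the single mutants overlapped with daf-2. The departure was -3.08 ± 0.33 (log2, SE; edgeR adjusted p = 0.000101), from an mg54 change of -3.29, a daf-16a change of -0.21 and a tm6659 change of 0.00. In the null mu86, lys-7 was at 25.8 to 40.7 CPM, and in N2 at 15.7, 21.2 and 26.99 CPM. spp-2 (X:7315995-7316818), which encodes a saposin-like protein of a family with antibacterial members, was at 8.22, 6.09 and 15.7 CPM in mg54. It was at 84.7, 80.2 and 135 CPM in tm5030, 90.1, 117 and 110 CPM in tm5032 and 80.7, 81.8 and 67.0 CPM in tm6659, against 118, 104.5 and 108 CPM in daf-2. Here tm6659 lay below daf-2 in every library, at 69.4% of its mean, but its change was not called (-0.53, adjusted p = 1), while the departure was (-2.83 ± 0.48, adjusted p = 0.00907). Of 64 lysozyme, saposin-like and antibacterial peptide loci tested, lys-7 and spp-2 were the 2 called below 0 and 0 were called above (0.38% and 0.0579% of all loci), and DESeq2 called 5. The list had a median departure of -0.30, against 0.02 for all loci, with 18 members lower and 1 higher in mg54 (5.57% and 3.77% of all loci), 8 lower and 1 higher in the daf-16a mutants (1.09% and 0.777% of all loci), and 0 in tm6659 (0.174% of all loci).

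hen-1 (X:7116202-7116996), which encodes a secreted protein needed for the integration of sensory signals in behaviour, followed the pattern of lys-7 at low counts. It was at 0.159, 0.204 and 0.251 CPM in mg54, and in total 20 counts were behind those values. It was at 3.06, 5.51 and 2.57 CPM in tm5030, 4.58, 9.10 and 3.28 CPM in tm5032 and 4.01, 6.13 and 2.92 CPM in tm6659, against 4.03, 6.09 and 4.07 CPM in daf-2. All single-mutant libraries were more than 10-fold above the highest mg54 library and overlapped with daf-2. The departure was -4.34 ± 0.68 (adjusted p = 0.00522). sdz-24 (II:658669-659846) had the largest departure of a gene with a public symbol. It was at 0.0317, 0.0681 and 0.223 CPM in mg54, 7.18, 13.2 and 14.1 CPM in tm5030, 7.42, 11.2 and 14.1 CPM in tm5032 and 13.2, 15.1 and 29.0 CPM in tm6659, against 15.1, 10.8 and 26.0 CPM in daf-2. The single mutants overlapped with daf-2, and mg54, with 11 counts in all, was far below. The departure was -6.75 ± 0.70 (adjusted p = 8.05e-05), and sdz-24 in mu86 was at 0.252, 0.131 and 0.197 CPM.

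**Figure D2:**
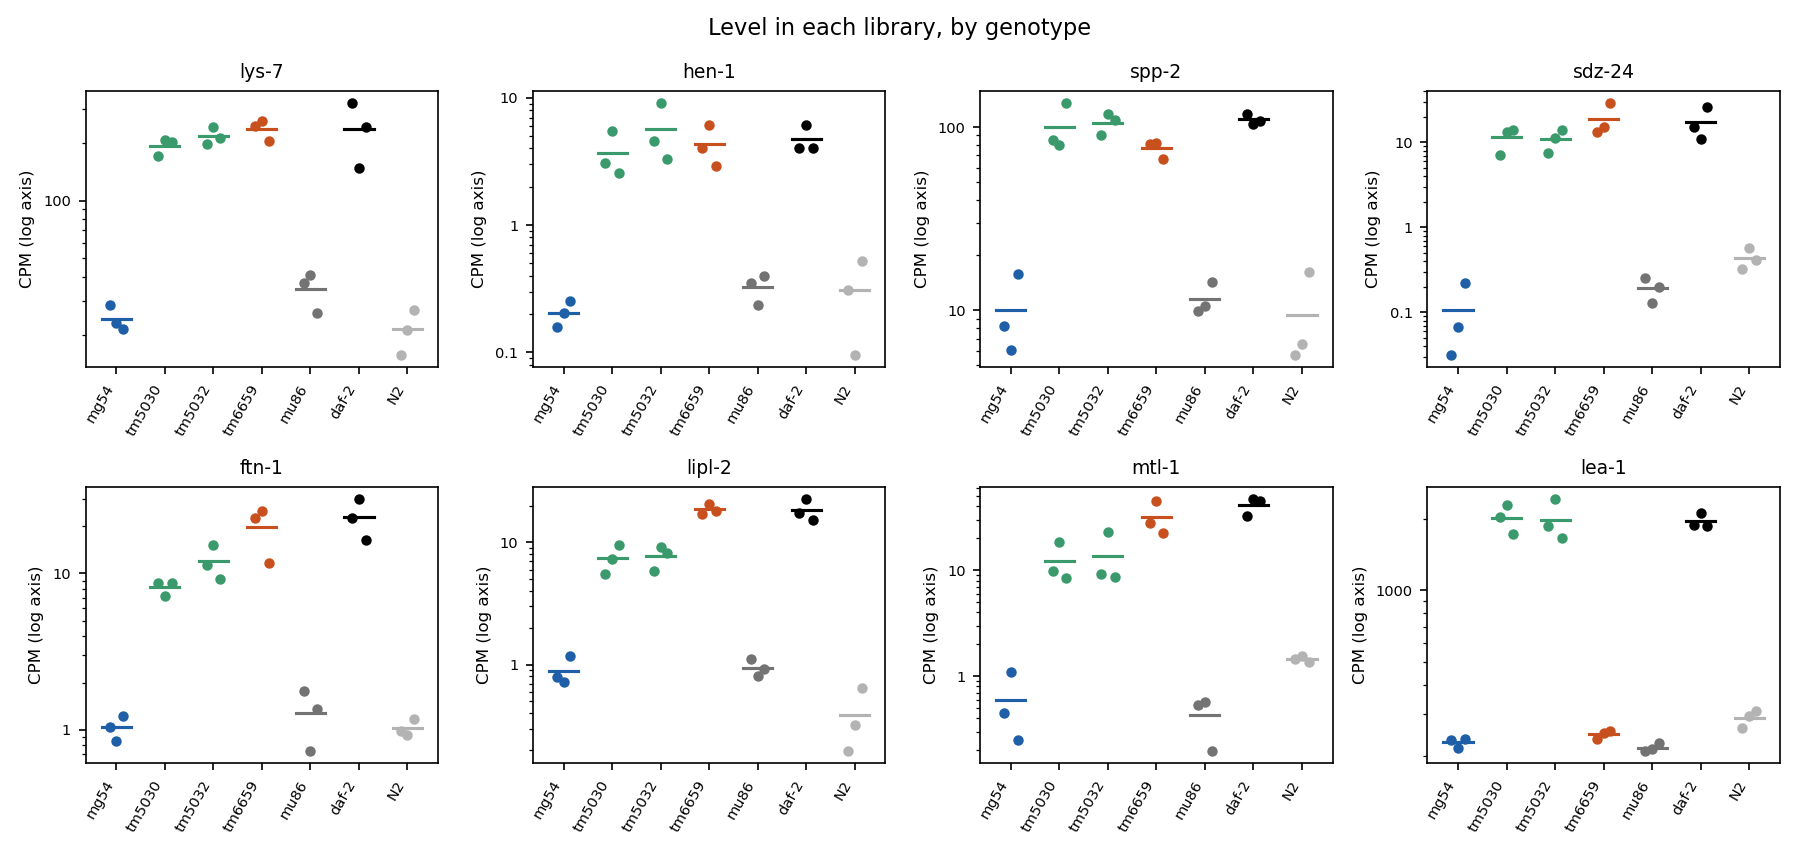
Level in each library (points, CPM on a log axis) and genotype mean (bars) of 8 genes, with the single and double mutants first, then the null mu86, daf-2 and N2. In lys-7, hen-1, spp-2 and sdz-24 the single mutants lie with or close to daf-2 and mg54 lies with mu86, in ftn-1, lipl-2 and mtl-1 (the larger of its 2 loci) the daf-16a mutants lie between, and in lea-1 tm6659 lies with mg54.

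A second pattern had the daf-16a mutants between daf-2 and mg54. It was seen in mtl-1 and ftn-1. mtl-1, a metallothionein, is listed under 2 loci (annotated at V:6691371-6691863), and the reads of the gene cannot be divided between them here. In the larger locus it was at 0.444, 1.09 and 0.251 CPM in mg54, 9.91, 18.6 and 8.40 CPM in tm5030, 9.22, 22.7 and 8.73 CPM in tm5032 and 27.7, 45.4 and 22.7 CPM in tm6659, against 32.8, 46.96 and 44.8 CPM in daf-2. The daf-16a libraries were all below daf-2 and all above mg54, and tm6659 overlapped with daf-2. The departure was -4.07 ± 0.67 (adjusted p = 0.00752), although the daf-16a mutants kept 31.1% of the daf-2 mean. In CPM the mg54 mean lay 2.73 CPM below the value from adding differences, with an SE of 8.64 CPM, so the departure of mtl-1 was detected on the log scale and not on the linear one. The smaller mtl-1 locus had -4.24 ± 0.80 (adjusted p = 0.0204), and its call was lost without any 1 of 7 libraries, with adjusted p-values of up to 0.089 without replicate 1 of mg54. ftn-1 (V:7546468-7547579), which encodes a ferritin heavy chain that stores iron, was at 1.05, 0.851 and 1.23 CPM in mg54, 8.75, 7.17 and 8.74 CPM in tm5030, 11.3, 15.3 and 9.26 CPM in tm5032 and 22.8, 25.1 and 11.7 CPM in tm6659, against 22.7, 29.96 and 16.39 CPM in daf-2. The daf-16a mutants fell (-1.22, adjusted p = 0.0207), and the departure was -3.03 ± 0.44 (adjusted p = 0.00233). The list of metallothioneins and ferritins had 3 of 6 loci called below 0 (mtl-1 at both loci and ftn-1, so 2 genes) and 0 above. The other 3 were not called lower in mg54, and the list had a median departure of -1.83, against 0.02 for all loci.

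Genes of fat metabolism were called at 2 of 56 loci of the list of lipases and acyl-CoA metabolism (0.438% of all loci), and these 2 did not share a pattern. The list had a median departure of -0.08, against 0.02 for all loci, with 12 members lower and 2 higher in mg54 (5.57% and 3.77% of all loci). lipl-2 (V:9791567-9793241), of the lysosomal lipase family, was at 0.793, 0.715 and 1.17 CPM in mg54, 5.49, 7.33 and 9.56 CPM in tm5030, 5.89, 9.25 and 8.17 CPM in tm5032 and 17.2, 20.8 and 18.2 CPM in tm6659, against 17.5, 22.6 and 15.2 CPM in daf-2. It fell in the daf-16a mutants (-1.28, adjusted p = 0.0137), was level with daf-2 in tm6659, and had a departure of -3.10 ± 0.43 (adjusted p = 0.00167). acox-3 (IV:6245358-6248492), an acyl-CoA oxidase gene of peroxisomal fat oxidation, was at 21.0, 27.5 and 20.1 CPM in mg54, 33.1, 37.2 and 28.9 CPM in tm5030, 32.95, 34.7 and 32.7 CPM in tm5032 and 53.8, 47.8 and 45.9 CPM in tm6659, against 38.5, 33.6 and 37.6 CPM in daf-2. Its tm6659 libraries were the highest of the 5 genotypes, at 134% of the daf-2 mean, though that change was not called (0.43, adjusted p = 0.511). The departure of acox-3 was -0.97 ± 0.17 (adjusted p = 0.0127), and without replicate 1 of mg54 the adjusted p was 0.055.

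Other genes in this group were named for a list or for their values. ges-1 (V:1427653-1432137), the gut esterase, was at 24.6, 23.5 and 22.7 CPM in mg54, 47.4, 51.8 and 59.5 CPM in tm5030, 50.2 to 55.1 CPM in tm5032 and 58.5, 64.5 and 59.1 CPM in tm6659, against 68.8, 73.8 and 74.3 CPM in daf-2. The libraries of mg54, of the single mutants and of daf-2 formed 3 separate ranges, with a departure of -0.92 ± 0.12 (adjusted p = 0.00122). The summed intestine markers, given above, were higher in mg54 than in daf-2 in every library, in the other direction to ges-1. For any gene measured in whole animals, fewer cells of a type and less RNA per cell cannot be told apart. The cytochrome P450 gene cyp-35B1 was the 1 locus called among 48 of its list, with a departure of -3.80 ± 0.69 (adjusted p = 0.0138) that rests on 6 counts in mg54. Its adjusted p was 0.0772 without replicate 1 of mg54, and 0.055 without replicate 2 of tm6659 or without replicate 3 of daf-2. Both dlhd-1 (-3.57 ± 0.75, adjusted p = 0.0477) and clc-27 (-3.39 ± 0.68, adjusted p = 0.031) kept the call in few of the 15 fits that left out 1 library, 2 for dlhd-1 and 7 for clc-27. Their adjusted p-values without replicate 1 of mg54 were 0.125 for dlhd-1 and 0.128 for clc-27.

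The following were chosen after their values were seen. The globin gene glb-1 (III:8922399-8923290) was at 13.4, 15.2 and 17.8 CPM in mg54, 37.8, 29.6 and 53.5 CPM in tm5030, 42.8, 34.6 and 57.8 CPM in tm5032 and 146, 144 and 178 CPM in tm6659, against 150, 132 and 187 CPM in daf-2. It followed the daf-16a mutation (-1.87, adjusted p = 1.25e-05) with no detected tm6659 change (0.00, adjusted p = 1), and went further down in mg54, with a departure of -1.46 ± 0.27 (adjusted p = 0.0164). That adjusted p was 0.0739 without replicate 1 of mg54, 0.058 without replicate 1 of daf-2 and 0.0597 without replicate 2 of daf-2. F17B5.1 (I:13184852-13188192) had 0 counts in every mg54, mu86 and N2 library, against 14.9, 15.7 and 10.0 CPM in daf-2. At the limit that a count of 0 allows (3 counts per library, 0.0937 CPM), it was at least 145-fold lower in mg54 than in daf-2. It was at 3.40, 2.62 and 4.77 CPM in tm5030, 4.44, 2.78 and 5.76 CPM in tm5032 and 11.8, 9.49 and 9.84 CPM in tm6659, and at the same limit its departure was -4.98 or lower. Y39B6A.1 (V:19201016-19203607) was the 1 of the 43 loci called higher in the daf-16a mutants than in daf-2 (0.68, adjusted p = 0.000477). It was at 260, 273 and 264 CPM in mg54, 613, 576 and 780 CPM in tm5030, 609, 564 and 662 CPM in tm5032 and 318, 372 and 326 CPM in tm6659, against 401, 375 and 410 CPM in daf-2, with a departure of -1.03 ± 0.14 (adjusted p = 0.00119).

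Among the genes chosen in the same way, several metabolic and regulatory genes had smaller departures with little spread. The histone deacetylase gene hda-5 averaged 4.54 ± 0.76 CPM in mg54 (SD, n = 3), 12.0 ± 1.39 CPM in the daf-16a mutants (n = 6) and 14.4 ± 1.79 CPM in tm6659 (n = 3), against 15.6 ± 0.89 CPM in daf-2 (n = 3), with a departure of -1.28 ± 0.20 (SE; edgeR adjusted p = 0.00522). The amino acid transporter gene aat-1 averaged 3.83 ± 0.59 CPM in mg54 (SD, n = 3), 11.2 ± 2.35 CPM in the daf-16a mutants (n = 6) and 22.1 ± 4.31 CPM in tm6659 (n = 3), against 23.9 ± 3.40 CPM in daf-2 (n = 3), with a departure of -1.42 ± 0.24 (SE; edgeR adjusted p = 0.00876). The daf-16a mutants thus kept more than 50% of the daf-2 mean in hda-5 and less in aat-1. A short-chain dehydrogenase gene, dhs-9, was at 14.4, 18.1 and 16.8 CPM in mg54 and averaged 35.2 ± 2.28 CPM in the daf-16a mutants (SD, n = 6) and 44.8 ± 6.38 CPM in tm6659 (n = 3), against 51.5 ± 4.05 CPM in daf-2 (n = 3). Its departure was -0.90 ± 0.15 (adjusted p = 0.00907).

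Known targets that DAF-16 raises all lay on the same side. Of the 23 loci tested, with mtl-1 counted at both its loci, 23 had a departure below 0, where 46.1% of all loci did, and 13 had a 95% interval without 0. Most of them fell in mg54, whose values enter the departure. Of the 385 loci at least 2-fold lower in mg54, 372 also had a departure below 0, so the shared sign is not particular to these targets. The calls below 0 were 6 (mtl-1 at both loci, lys-7, dod-3, ftn-1 and pud-3), and 0 were above (0.38% and 0.0579% of all loci). DESeq2 called 10 of the 23, and 119 among all loci. The median departure was -1.03, against 0.02 for all loci. In mg54 20 members were lower, in the daf-16a mutants 6 and in tm6659 2 (5.57%, 1.09% and 0.132% of all loci). dod-3, named for lying downstream of daf-16, was at 4.13, 2.79 and 4.12 CPM in mg54, 35.5, 28.4 and 27.7 CPM in tm5030, 37.6, 50.6 and 33.6 CPM in tm5032 and 71.2, 85.8 and 32.6 CPM in tm6659, against 87.2, 85.8 and 45.9 CPM in daf-2. The departure of dod-3 was -3.05 ± 0.52 (adjusted p = 0.00907), with the daf-16a mutants at 48.8% and tm6659 at 86.6% of the daf-2 mean. pud-3, whose protein is raised in daf-2 mutants, was at 66.5, 67.0 and 48.8 CPM in mg54, 230, 297 and 222 CPM in tm5030, 272, 414 and 229 CPM in tm5032 and 356, 491 and 436 CPM in tm6659, against 314, 419 and 416 CPM in daf-2. Its departure was -2.34 ± 0.44 (adjusted p = 0.0204), and the adjusted p was between 0.0519 and 0.079 without replicate 1 or 3 of mg54, replicate 2 of tm6659, or any replicate of daf-2.

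Of the 17 raised targets that were not called, 7 had an interval without 0. sod-3, the mitochondrial superoxide dismutase often used as a reporter of DAF-16 activity, was at 3.59, 3.61 and 4.93 CPM in mg54, 9.71, 8.66 and 19.2 CPM in tm5030, 9.84, 7.22 and 18.0 CPM in tm5032 and 38.9, 45.4 and 59.0 CPM in tm6659, against 39.3, 34.4 and 54.9 CPM in daf-2. Its tm6659 level overlapped with daf-2 and the daf-16a mutants were at 28.2% of daf-2, and the departure of -1.74 ± 0.49 was not called (adjusted p = 0.248). The departures of nnt-1, a transhydrogenase of the mitochondrial membrane (-0.96 ± 0.21, adjusted p = 0.0647), and pud-4 (-2.05 ± 0.46, adjusted p = 0.0677) lay just outside the threshold, and pud-4 was called with upper-quartile scaling (adjusted p = 0.0477). icl-1, the glyoxylate cycle enzyme, had -1.42 ± 0.50 (adjusted p = 0.548), with the daf-16a mutants at 94.9% of daf-2.

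The 7 loci tested of known targets that DAF-16 lowers pointed the other way and none of them was called (0 of 7 by edgeR or DESeq2, 3 at an unadjusted p under 0.05). Their median departure was 1.11, with 6 of 7 above 0. Of the 218 loci at least 2-fold higher in mg54, 172 had a departure above 0. In mg54 4 were higher and in the daf-16a mutants 2 (3.77% and 0.777% of all loci). dod-23 was at 93.1, 112 and 82.3 CPM in mg54, 39.2, 49.98 and 28.1 CPM in tm5030, 37.5, 64.9 and 31.4 CPM in tm5032 and 22.8, 28.6 and 20.5 CPM in tm6659, against 20.1, 27.2 and 20.5 CPM in daf-2. All mg54 libraries were above the rest, all daf-16a libraries were above the daf-2 mean, and the departure was 1.11 ± 0.31 (adjusted p = 0.241).

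**Figure D3:**
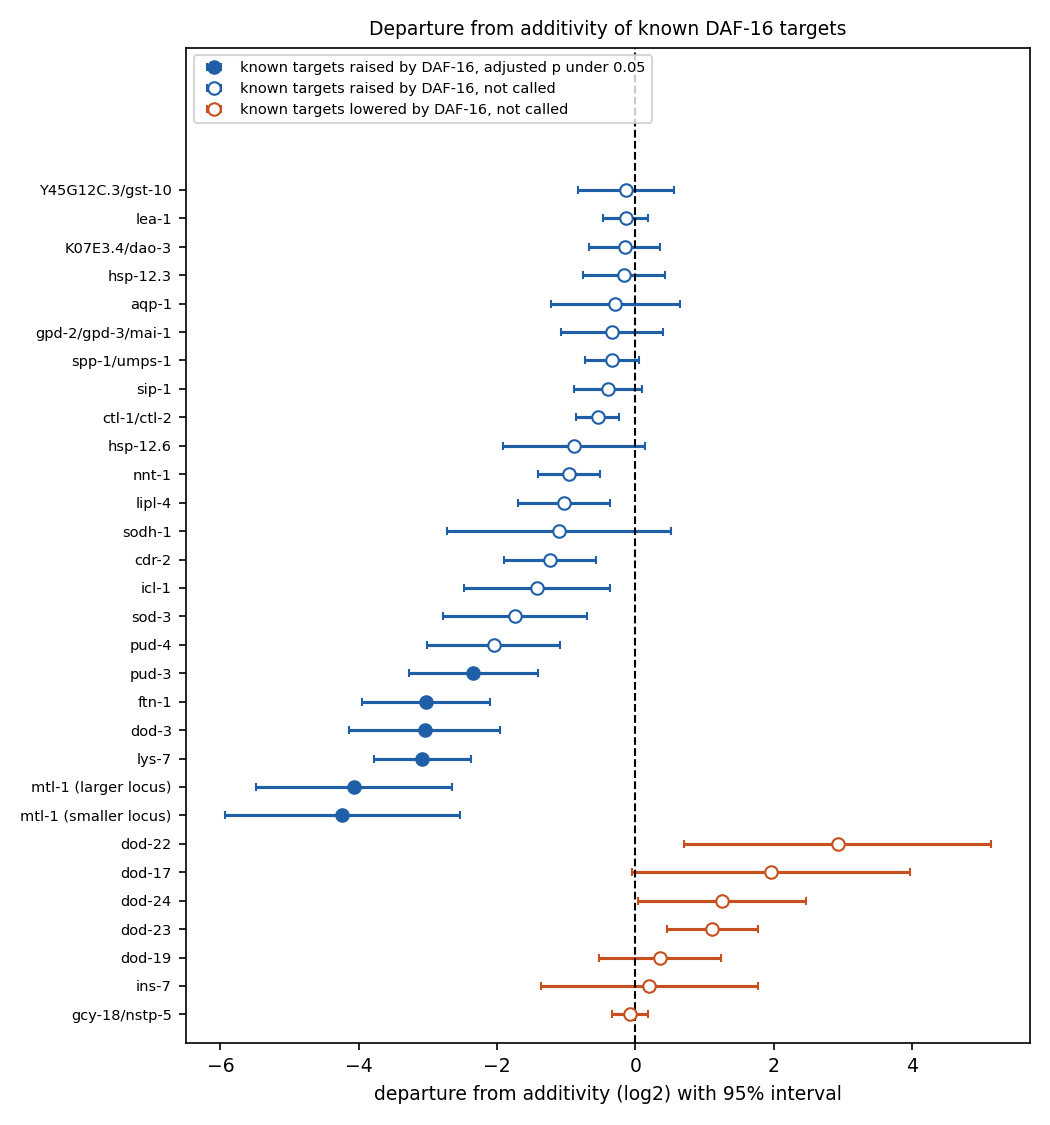
Departure from additivity (log2, points) with its 95% interval (lines) of the loci known to be raised (23) or lowered (7) by DAF-16, filled where the adjusted p is under 0.05. The points of the raised targets lie between -4.24 and -0.13, with 6 filled, and those of the lowered targets between -0.08 and 2.93, with 0 filled.

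Other genes changed in mg54 about as much as the single changes add up to. lea-1 (V:10011923-10028168), which encodes a late embryogenesis abundant protein of desiccation tolerance, was at 234, 217 and 236 CPM in mg54, 2031, 2283 and 1723 CPM in tm5030, 1875, 2424 and 1657 CPM in tm5032 and 236, 249 and 255 CPM in tm6659, against 1881, 2110 and 1866 CPM in daf-2. The tm6659 level overlapped with mg54 (adjusted p = 4.5e-10 against daf-2), and the daf-16a mutants overlapped with daf-2. Its departure was -0.14 with a 95% interval of -0.47 to 0.19. The small heat shock gene sip-1 followed the f mutation as well, at 273, 349 and 232 CPM in mg54, 884, 960 and 786 CPM in tm5030, 881, 1146 and 719 CPM in tm5032 and 350, 452 and 352 CPM in tm6659, against 920, 937 and 905 CPM in daf-2. The f change had an adjusted p of 0.00238, and the departure of sip-1 was -0.40 (interval -0.89 to 0.09). The other near-additive genes named by the rule were the catalase gene ctl-3 (departure -0.24, interval -0.87 to 0.40, tm6659 change -1.17 with an adjusted p of 0.0546), and msa-1, gst-20 and cpr-5.

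msa-1, at 13.5, 11.6 and 19.1 CPM in mg54, 21.5, 20.3 and 27.9 CPM in tm5030, 24.8, 19.4 and 26.6 CPM in tm5032 and 88.5, 96.7 and 63.0 CPM in tm6659, against 99.3, 102 and 80.5 CPM in daf-2, followed the daf-16a mutation (-2.003, log2, adjusted p = 1.25e-05). Its departure was -0.49 (interval -1.10 to 0.13). The glutathione S-transferase gene gst-20 had a departure of -0.23 (interval -0.77 to 0.31) and fell by 1.33 in the daf-16a mutants (log2, adjusted p = 0.00017). The cathepsin B-like protease gene cpr-5 rose in mg54 (1.65, adjusted p = 0.000312) and in the daf-16a mutants (1.11, adjusted p = 0.012), with a departure of 0.37 (interval -0.31 to 1.05).

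The 5 loci with a departure and an mg54 change above 0 were asp-17, srh-70, F31F7.1 and sahd-1, in which the mg54 rise was called, and cTel55X.1, in which it was not. Of these srh-70, F31F7.1 and cTel55X.1 lie outside the naming rule and are given because the group is small. asp-17 (V:19035723-19037322), of the aspartyl protease family, was at 14.6, 10.0 and 29.7 CPM in mg54, 2.07, 2.095 and 3.84 CPM in tm5030, 1.93, 1.90 and 3.19 CPM in tm5032 and 0.733, 0.603 and 0.526 CPM in tm6659, against 1.38, 0.524 and 1.08 CPM in daf-2. Every daf-16a library lay above daf-2 and below mg54, and tm6659 overlapped with daf-2. The departure was 3.54 ± 0.67 (adjusted p = 0.0204). Without replicate 3 of mg54 the adjusted p of asp-17 was 0.069, it was 0.0606, 0.0942 and 0.0631 without replicate 1, 2 or 3 of tm6659, and 0.0769 and 0.0651 without replicate 1 or 3 of daf-2. It was the 1 locus called among 43 aspartyl, cysteine and astacin protease loci.

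srh-70 (II:12516728-12518859), a chemoreceptor-family gene, was at 5.40, 3.61 and 5.16 CPM in mg54, 1.79, 0.992 and 1.51 CPM in tm5030, 1.58, 1.69 and 1.31 CPM in tm5032 and 0.825, 0.446 and 0.905 CPM in tm6659, against 0.663, 0.688 and 0.904 CPM in daf-2. The departure was 1.72 ± 0.37, just inside the threshold (adjusted p = 0.0479), and the call was lost without any 1 of 12 libraries, up to an adjusted p of 0.183 without replicate 3 of daf-2. F31F7.1 was at 120, 114.8 and 142.4 CPM in mg54, 54.6, 64.8 and 77.8 CPM in tm5030, 62.6, 66.9 and 76.03 CPM in tm5032 and 62.3, 63.9 and 77.9 CPM in tm6659, against 58.6, 87.8 and 82.3 CPM in daf-2. The single mutants overlapped with daf-2 and mg54 was above all of them, as was mu86 at 122, 116 and 135 CPM. Its departure was 1.07 ± 0.21 (adjusted p = 0.0278), with a call in 6 of 15 fits that left out 1 library and an adjusted p of up to 0.122, without replicate 2 of tm6659. sahd-1 had a small change with little spread, at 127, 121 and 120 CPM in mg54 and 93.4 to 98.9 CPM in tm6659, against 98.2, 101 and 98.2 CPM in daf-2. Its departure was 0.34 ± 0.06 (adjusted p = 0.0219), kept in 1 of 15 fits that left out 1 library, with adjusted p-values of 0.0712 to 0.158 in the 14 others.

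In another pattern every daf-16 mutant had left the daf-2 level and the double loss went no further. ugt-64 (V:3503080-3506352), a UDP-glucuronosyltransferase gene of detoxification, was at 51.5, 52.8 and 68.5 CPM in mg54, 45.8, 38.6 and 61.3 CPM in tm5030, 63.1, 50.96 and 76.05 CPM in tm5032 and 74.0, 76.4 and 60.1 CPM in tm6659, against 26.5, 21.5 and 19.2 CPM in daf-2. The 4 daf-16 genotypes overlapped with each other and lay above daf-2 in every library. ugt-64 rose in mg54 (1.36, adjusted p = 0.000278), in the daf-16a mutants (1.31, adjusted p = 0.000659) and in tm6659 (1.65, adjusted p = 0.000575), and the departure was -1.59 ± 0.27 (adjusted p = 0.00876). It was at 48.6, 62.7 and 76.4 CPM in mu86 and 53.3, 51.2 and 46.1 CPM in N2. Among 51 UDP-glucuronosyltransferase loci it was the 1 called, and the median departure of the list was 0.19. dnbp-1 (IV:13964356-13979847) was the counterpart in the other direction, at 57.7, 53.3 and 57.5 CPM in mg54, 55.3, 61.1 and 54.6 CPM in tm5030, 56.99, 57.1 and 58.1 CPM in tm5032 and 58.1, 63.8 and 65.0 CPM in tm6659, against 87.4, 102 and 83.2 CPM in daf-2. Here too the 4 daf-16 genotypes lay together, below daf-2 in every library. Its departure was 0.52 ± 0.10 (adjusted p = 0.0311), kept in 1 of 15 fits that left out 1 library, with an adjusted p of up to 0.152 without replicate 3 of mg54.

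Y69A2AR.12 and Y48G9A.17, the other 2 loci with a departure below 0 and an mg54 change above 0, are named for completeness and had under 2 CPM in all 15 libraries. Y69A2AR.12 was at 0.191, 0.238 and 0.223 CPM in mg54, 0.386 to 0.644 CPM in the 6 daf-16a libraries and 0.344, 0.315 and 0.175 CPM in tm6659, against 0.0828, 0.0328 and 0.0602 CPM in daf-2. Its departure was -3.39 ± 0.47 (adjusted p = 0.00167). Y48G9A.17 was at 0.0952, 0.0681 and 0.0836 CPM in mg54, 0.0795 to 0.937 CPM in the 6 daf-16a libraries and 1.22, 0.655 and 0.584 CPM in tm6659, against 0.0552, 0.164 and 0 CPM in daf-2. Here mg54 was in the range of daf-2 and tm6659 was above both, unlike ugt-64. The locus had a departure of -5.62 ± 1.00 (adjusted p = 0.0138), which was lost without replicate 1 of mg54 (0.0525) or replicate 1 of daf-2 (0.0572).

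In 2 called loci, both chosen after their values were seen, 1 strain stood apart. cTel55X.1 (X:17714961-17718726) was at 22.9, 24.5 and 23.7 CPM in mg54, 22.1 to 24.3 CPM in tm5030, 22.7, 25.3 and 19.9 CPM in tm5032 and 1.10, 2.73 and 2.95 CPM in tm6659, against 20.8, 22.99 and 21.9 CPM in daf-2. It was low in tm6659 and level in the other genotypes, mg54 and mu86 (21.5, 23.4 and 23.3 CPM) included, and its departure was 3.33 ± 0.30 (adjusted p = 1.56e-05). haf-6 (I:1162880-1175809), an ABC transporter gene, was at 10.9, 11.0 and 9.64 CPM in mg54, 38.4, 44.6 and 43.1 CPM in tm5030, 40.7, 49.6 and 41.4 CPM in tm5032 and 29.9, 41.0 and 40.7 CPM in tm6659, against 42.7, 42.9 and 43.8 CPM in daf-2. In the null mu86 it was at 41.1, 41.4 and 44.98 CPM, so haf-6 was low in mg54 and not in the null. Its departure was -1.82 ± 0.16 (adjusted p = 1.45e-05).

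The daf-16 locus itself (I:10750498-10776703) counts reads of all isoforms. It was at 94.4, 94.3 and 94.0 CPM in mg54, 135, 156 and 139 CPM in tm5030, 158, 181 and 157 CPM in tm5032 and 49.02, 54.01 and 70.2 CPM in tm6659, against 141.8, 173 and 175 CPM in daf-2. The lowest genotype was tm6659, mg54 was next with little spread, and the daf-16a mutants overlapped with daf-2. The departure was 0.79 ± 0.15 (adjusted p = 0.0192), with the call lost without any 1 of 8 libraries, up to an adjusted p of 0.0942 without replicate 2 of tm6659. The null mu86 was at 145, 150 and 167 CPM, in the range of daf-2. daf-2, which carries e1370 in all 15 libraries, had a departure of -0.31 (interval -0.63 to 0.01, adjusted p = 1), and averaged 115.5 ± 7.1 CPM in mg54, 156 ± 19.8 CPM in the 6 daf-16a libraries and 158.8 ± 13.1 CPM in tm6659, against 173.2 ± 12.33 CPM in the daf-2 animals (SD; n = 3 where not stated).

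**Figure D4:**
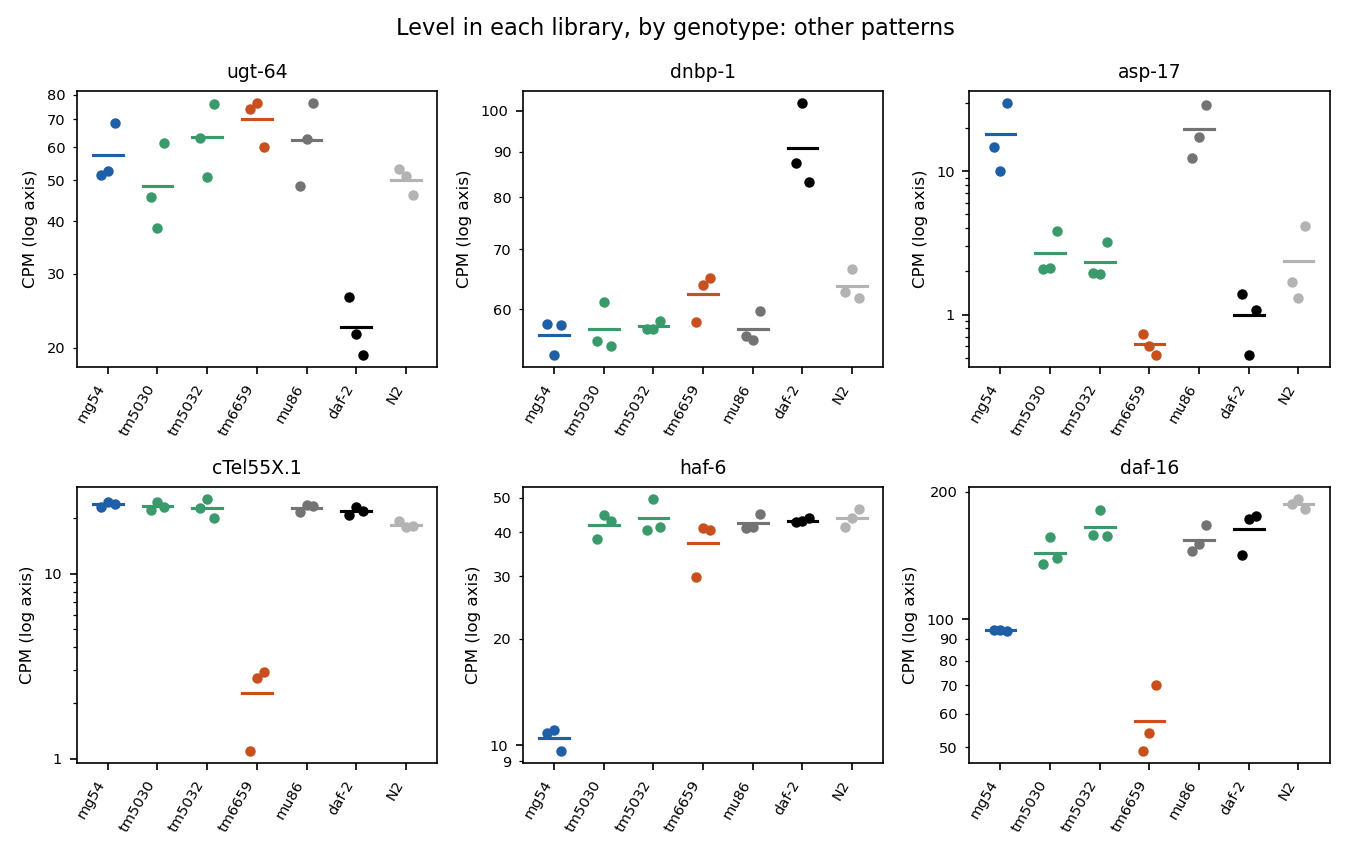
Level in each library (points, CPM on a log axis) and genotype mean (bars) of 6 genes that depart in other ways, with the null mu86 and N2 beside the genotypes of the contrast. In ugt-64 and dnbp-1 all daf-16 mutants lie together apart from daf-2, asp-17 is highest in mg54 and mu86, cTel55X.1 is low in tm6659, haf-6 is low in mg54, and daf-16 is lowest in tm6659.

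Each daf-16a allele was also used alone. With tm5030 as the daf-16a term in place of the mean, 34 of the 53 loci were called, with tm5032 43, and 53 kept the sign with each. The 53 loci were picked on the mean of both alleles, and these contrasts share the mg54, tm6659 and daf-2 libraries. Agreement in sign was therefore largely set by that choice. Between tm5030 and tm5032, 3 loci in all were called (0.0248%), and 0 of the 53 were among them (2 at an unadjusted p under 0.05, 0 by DESeq2). Between mg54 and the null mu86, 4 loci were called (0.0331%), among them haf-6 (-2.02, log2, mg54 minus mu86) and daf-16 (-0.71). The 43 loci lay on chromosome I (4), II (7), III (4), IV (5), V (20) and X (3). Chromosome V held 46.5% of them and 19.8% of the loci tested, which is given with no test.

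Lists without a called departure included the superoxide dismutases, catalases and peroxiredoxins (10 loci tested, median departure -0.04), small heat shock proteins (10, -0.28), glutathione S-transferases (39, -0.13), C-type lectins (98, 0.12), fatty acid desaturases and elongases (16, 0.25), the genes of the glyoxylate, trehalose, glycerol and gluconeogenesis pathways (18, -0.11), insulin-like peptides (23, -0.45) and transthyretin-related genes (49, -0.25). Cuticle collagens (127, -0.18), vitellogenins (5, 0.14), cytosolic ribosomal proteins (77, 0.03), proteasome subunits (33, -0.03) and nuclear hormone receptors (166, 0.08) also had 0 loci called. The 14 lists with 0 calls other than the known targets held 699 loci, counting the major sperm proteins. Of these, 57 had an unadjusted p under 0.05, where 4.75% of all 12091 loci did. They were unevenly spread, with 17 of 127 cuticle collagens and 15 of 98 C-type lectins. By contrast, there were 4 of 166 nuclear hormone receptors and 0 of 77 cytosolic ribosomal proteins. DESeq2 called 10 of the 699, and 119 among all loci. The 10 were in the lists of C-type lectins, cuticle collagens, transthyretin-related genes, glutathione S-transferases and superoxide dismutases. Major sperm proteins had a median departure of 0.70 over 29 loci with 0 called, and their summed level ranged over more than 2-fold between libraries of mg54 and of each other genotype of the contrast. In the insulin to DAF-16 pathway, daf-16 was the 1 of 20 loci called.

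Loci near the threshold had similar values. Just inside it were dlhd-1 (adjusted p = 0.0477) and srh-70 (0.0479), and just outside were F56A12.6 (0.053) and the locus of gst-29 and gst-32 (0.0594). The call of 28 of the 53 loci held in all 15 fits that left out 1 library (27 below 0, and cTel55X.1 above 0), lys-7, spp-2, hen-1, sdz-24, ftn-1, lipl-2, dod-3, ges-1, haf-6, ugt-64 and the larger mtl-1 locus among them.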

How the data were processed

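Per the labels, total RNA of whole animals was purified over poly(A), made into unstranded TruSeq libraries, and read in paired-end runs. Per the submitters' processing notes, CASAVA 1.8.2, TopHat2 2.0.9 and Cufflinks 2.1.1 were used. Genome build and annotation: not given in the sources used here. Tables deposited by the authors hold expected counts of fragments per locus and FPKM. Of the counts, 86.3% are whole (tolerance 1e-09), and 0 columns were left out.

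Of 33886 loci, the 300 without a name (1.063% to 1.544% of the counts of a library) and 3 entries that are not loci were left out. Of 39542 gene names, 38965 (98.5%) matched Ensembl release 115 or RefSeq for WBcel235, which gave positions. Where genes overlap within a locus, their reads cannot be told apart.

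Counts were rounded to whole numbers, scaled by TMM and filtered with filterByExpr (edgeR 4.0.16, R 4.3.3), which left 12091 loci, 1893 of them with more than 1 coding gene. All 21 libraries entered 1 quasi-likelihood model with a term per genotype (common biological coefficient of variation 0.346). Tests are 2-sided, with Benjamini-Hochberg adjustment over all loci of a comparison, and a locus is called at an adjusted p under 0.05. The SE is the absolute log2 change over the square root of F. The 95% intervals reflect the spread between libraries, and floors reflect counting error alone. The code was tested on simulated data. No libraries of a genotype were alike within counting noise.

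The contrast, the gene lists and the tests were chosen with earlier results of these data known. Genes named by rule are daf-16, daf-2, the 6 largest departures of each of the 4 sign groups (single-gene loci with a public symbol, a mean of at least 2 CPM and the same sign with each daf-16a allele), 6 near-additive genes (departure under 0.5, half-width under 1, largest mg54 change), all known targets, and up to 3 called members of each other list. Other genes are said to be chosen after their values were seen. Alternatives were RLE and upper-quartile scaling, no filter, a mean of at least 2 CPM, DESeq2 1.42.0, limma-voom (limma 3.58.1), the 15 libraries alone, a replicate block, limma on log2(FPKM + 1) and log2(FPKM + 0.1), the linear scale, each daf-16a allele alone, and leaving out libraries.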

Additional observations from a re-analysis of the deposited data

Results flagged for a closer look

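A test of the difference itself called 53 loci with the departure described above. In these the fitted change with daf-16a loss differed between strains with and without daf-16f loss. Effects of the isoforms and of other differences between the strains cannot be told apart. The locus haf-6 differed between the mg54 and mu86 strains, both in daf-2(e1370), by -2.02 on the log2 scale (mg54 minus mu86, edgeR quasi-likelihood test, adjusted p = 5.39e-08), and was lower in all 3 mg54 libraries. The daf-16 locus differed between the same strains by -0.71 (adjusted p = 0.0277), and was lower in all 3 mg54 libraries. The cause of these differences was not tested.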

How the results depend on the processing

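Every one of the 53 departures kept its sign in the log-scale settings in which its locus was present, F15B9.6 changed sign on the linear scale (5.89 CPM, SE 12.03), and 28 kept their call in all 15 fits that left out 1 library. The number called (53) was 119 with DESeq2, 26 and 32 on log2(FPKM + 1) and log2(FPKM + 0.1), 13 without the libraries numbered 2, 35 with tm5030 alone, and 32 to 66 when 1 library was left out, lowest without replicate 1 of mg54 and highest without replicate 3 of tm6659. Of the 53, DESeq2 called 53 and the FPKM settings 19 and 26. The FPKM scale moved the median departure of all loci to -0.108 and -0.132. Below 0 the number (46) was 90, 20, 28 and 12 in the first 4 of these settings, and 30 to 53 with 1 library left out. Above 0 (7) it was 29 with DESeq2, 4 on log2(FPKM + 0.1), 3 with no filter, 2 with the 15 libraries alone, 2 with tm5030 alone, 1 without the libraries numbered 2, 2 without those numbered 3, and 1 to 13 with 1 left out. For mg54 (1130) it was 708 and 734 on the FPKM scales, 533 without the libraries numbered 2 and 815 to 1242. For the daf-16a mutants (226) it was 144 at a mean of at least 2 CPM, 437 with DESeq2, 56 without the libraries numbered 2 and 105 to 252. For tm6659 (21) it was 32 with upper-quartile scaling, 32 at a mean of at least 2 CPM, 59 with DESeq2, 7 and 7 on the FPKM scales, 7 without the libraries numbered 2, 12 without those numbered 3, and 10 to 21. The cause was not tested.

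All genotypes use replicate numbers 1 to 3. Of 63 same-number pairs of libraries, 57 deviated together (r over 0.1), with a median r of 0.49 and a range of -0.32 to 0.89. Pairs with different numbers had a median r of -0.15. The numbers did not pair the samples throughout. Still, 18 of 21 libraries lay closest to their own number, a hint from the data and not from the design. The main model has no term for the replicate number. With the replicate block, 154 departures were called (102 below 0 and 52 above 0), 2300 loci in mg54, 695 in the daf-16a mutants and 85 in tm6659.

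With 3 libraries a genotype and a contrast of 5 genotypes, the median SE of 0.48 among the loci at least 2-fold changed in mg54 sets what is detectable. A locus that missed the threshold is not shown to be additive, and low counts in mg54 make large departures imprecise.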

Other observations

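The gene cgt-2, which lies at X:17695232-17701743 beside cTel55X.1, averaged 17.3 CPM in tm6659 and 9.19 CPM in daf-2 (log2 change 0.91, edgeR quasi-likelihood test, adjusted p = 0.0114). Its departure from additivity was -0.35 and was not called. It was chosen after its values were seen.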
